A study of Homo sapiens with 15 samples.

Results

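Peaks of the histone marks H3K4me3 and H3K27ac were examined at the 5 cadherin genes of the short arm of human chromosome 5, CDH18, CDH12, CDH10, CDH9 and CDH6, in MDA-MB-231 cells, a triple-negative human breast cancer line, and in metastatic derivatives of it. The parental line (Par) was compared with LM2, a sub-population with tropism for lung, and BrM2, a sub-population with tropism for brain, all grown in monolayer without treatment, in medium with 10% serum for 3 days. ChIP-seq was carried out with 2 biological replicates per line and mark, and the 3 input samples were not analysed here. A peak was a member when it overlapped the body of a listed gene, or lay within 100 kb of one and had the start of a listed gene as its nearest protein-coding gene start. By this rule 22 of 84767 peaks were members, 16 with H3K4me3 (of 22572) and 6 with H3K27ac (of 62195). The genes were chosen by the H3K4me3 values of BrM2 against Par, at a peak in CDH18 and over the stretch of the arm around it, which were higher in BrM2. Values of BrM2 against Par are therefore given as a description with no test. The comparisons of LM2 against Par and of BrM2 against LM2 were tested, but they share the Par or the BrM2 libraries with the one that led to the choice.

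Classical cadherins are transmembrane proteins that hold neighbouring cells together by binding cadherins on the next cell through their extracellular repeats, while their cytoplasmic tails bind catenins that connect to actin. The 5 genes encode type II classical cadherins, many of which are expressed in restricted groups of neurons, where they take part in sorting cells and in forming synapses. H3K4me3 marks active promoters, and H3K27ac marks active promoters and enhancers. CDH18 lies at chr5:19471405-20575982, CDH12 at chr5:21750782-22853453, CDH10 at chr5:24487209-24645087 and CDH9 at chr5:26880706-27121257, all on the minus strand, and CDH6 lies at chr5:31193793-31329253 on the plus strand (GRCh37, GENCODE release 44). CDH18 spans 1105 kb and CDH12 spans 1103 kb, against 158 kb for CDH10, 241 kb for CDH9 and 135 kb for CDH6.

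The 200 bases upstream of coding transcript starts at or next to H3K4me3 peaks are shown for 4 of the genes, because the levels at these starts are compared below. They run 5′ to 3′ on the strand of the gene (GRCh37), with each CG dinucleotide in capitals. They come from chr5:19988317-19988516 for the CDH18 start at 19988316, chr5:22853454-22853653 for CDH12, chr5:24645088-24645287 for CDH10 and chr5:31193593-31193792 for CDH6. The CDH18 start used lies inside the gene, in a peak centred 587.5 kb from the annotated gene start at 20575982.
CDH18 start at 19988316: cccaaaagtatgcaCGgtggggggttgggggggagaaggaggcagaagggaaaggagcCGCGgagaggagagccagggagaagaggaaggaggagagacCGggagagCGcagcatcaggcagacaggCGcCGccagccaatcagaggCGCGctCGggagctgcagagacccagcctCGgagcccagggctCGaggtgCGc
CDH12 start at 22853453: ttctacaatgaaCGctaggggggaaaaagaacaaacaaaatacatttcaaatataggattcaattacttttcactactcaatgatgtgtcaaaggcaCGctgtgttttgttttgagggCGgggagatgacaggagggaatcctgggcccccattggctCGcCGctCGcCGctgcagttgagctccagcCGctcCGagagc
CDH10 start at 24645087: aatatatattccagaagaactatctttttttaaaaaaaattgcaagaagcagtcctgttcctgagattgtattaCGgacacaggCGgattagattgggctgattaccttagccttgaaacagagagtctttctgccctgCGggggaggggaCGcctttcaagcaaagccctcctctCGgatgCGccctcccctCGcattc
CDH6 start at 31193793: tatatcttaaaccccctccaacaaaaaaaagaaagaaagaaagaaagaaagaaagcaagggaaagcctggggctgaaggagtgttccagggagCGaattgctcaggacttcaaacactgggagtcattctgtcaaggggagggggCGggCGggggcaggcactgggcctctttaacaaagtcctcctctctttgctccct
All 200 bases lay inside an H3K4me3 peak at CDH18 and at CDH10. At CDH12, 99 bases did, and at CDH6 none (0 bases). The windows held 13 CG dinucleotides at CDH18, 9 at CDH12, 7 at CDH10 and 3 at CDH6, against a median of 12 and quartiles of 4 and 20 upstream of 20140 protein-coding gene starts. On either strand, the letters GGGCGG were in the windows of CDH12 and CDH6 and in 46.5% of all windows. The letters CCAAT were in the windows of CDH18, CDH12 and CDH10, and in 29.2% of all windows. These matches are a description of the letters only.

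Depth was 3489607 to 9839629 reads in H3K4me3 peaks and 1994996 to 6450028 in H3K27ac peaks per library, so 3 reads amounted to 0.305 to 0.860 and 0.465 to 1.504 CPM (counts per 1e6 reads in peaks). Intervals and limits given below cover counting error only. Of the marker genes checked for the cell type, an H3K4me3 peak lay at a start of 10 of 10 luminal and epithelial, 6 of 7 mesenchymal, 5 of 7 neuronal, 3 of 4 glial and 2 of 4 lung genes. VIM, the mesenchymal intermediate filament, had 199.5 to 249.9 CPM. Of the epithelial list, CDH1, the epithelial cadherin, had 2.01 to 8.03 CPM, and ERBB2, a growth factor receptor, had 77.95 to 99.8 CPM over the 6 libraries. The lines did not overlap at, for example, ESR1 (6.88 to 7.15 CPM in Par, 38.3 to 39.5 in LM2 and 20.2 to 24.2 in BrM2) and CLDN4 (43.6 to 71.3, 2.75 to 7.42 and 9.603 to 19.5 CPM). The neuronal markers RBFOX3 and NEFL and the glial marker OLIG2 had no peak in any line. The summed level of the epithelial list was 373 to 449 CPM in Par, 327 to 371 in LM2 and 429 to 473 in BrM2. KRT8 and KRT18 had the same values in every library (59.2 to 101 CPM), which enter this sum under both names. The summed level of the neuronal list was 124 to 143 CPM in Par, 127 to 169 in LM2 and 158 to 183 in BrM2, and that of the glial list was 157 to 174, 152 to 182 and 201 to 277 CPM. Most of the neuronal sum was TUBB3 (85.3 to 94.3, 96.6 to 105 and 122 to 124 CPM). Most of the glial sum was MBP (145 to 170, 134 to 176 and 183 to 257 CPM). SYP, SNAP25, MAP2, SYT1 and GFAP overlapped between the lines, while AQP4 was highest in BrM2 (10.3 to 16.8 CPM). The part of these differences in the results below was not tested.

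Summed over the peaks of each gene, H3K4me3 at CDH18, CDH12, CDH10 and CDH9 was close to absent in Par, low in LM2 and higher in BrM2. Par and LM2 were not separate at the starts of CDH12 and CDH10 or at the CDH18 start at 19804137. The CDH9 peaks all lay outside the gene. Of their mean of 41.4 CPM in BrM2, 28.5 CPM came from the start of the long non-coding RNA gene PURPL. CDH6 had 2.29 and 5.21 CPM in Par, 2.52 and 6.50 CPM in LM2 and 5.24 and 6.82 CPM in BrM2 over its peaks. Summed over the 16 peaks, H3K4me3 held 3.73 and 9.38 CPM in the Par libraries, 12.6 and 25.4 CPM in LM2, and 70.3 and 112 CPM in BrM2 (replicates 1 and 2 throughout). Of the 16 peaks, 5 had no read in either Par library and 11 had at most 3 reads over both, against 0.771% and 4.35% of all H3K4me3 peaks. Both BrM2 libraries lay above the other 4 libraries at 14 of 16 peaks, where 11.7% of all peaks did, and the mean CPM followed the order Par, LM2, BrM2 at 14, where 17.9% did. These counts rest in part on the comparison that led to the choice of the genes, and nothing is read from them. The exceptions to the first count were a peak downstream of CDH10 and the larger CDH6 peak.

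**Figure D1:**
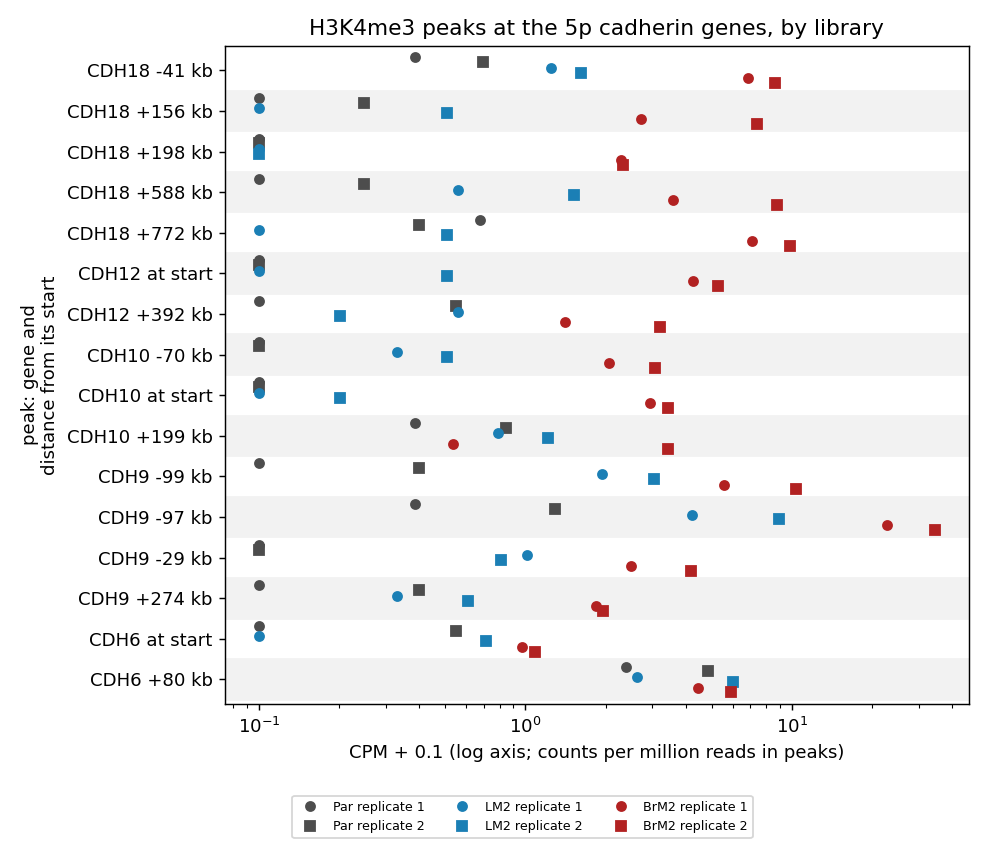
H3K4me3 level of the 16 peaks in each of the 6 libraries, as CPM + 0.1 on a log axis, with circles for replicate 1 and squares for replicate 2. Peaks are named by gene and by the distance of their centre from the annotated gene start, where negative values lie upstream. BrM2 libraries lie to the right of the Par and LM2 libraries at 14 of 16 peaks, and the 3 lines mix at the CDH6 peak inside the gene.

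At CDH18, a cadherin with strong expression in the central nervous system, 5 H3K4me3 peaks were found, and 3 of them rose in BrM2 against LM2. One of them, at chr5:19802734-19804380, covers an internal start at 19804137 of a transcript with no defined coding sequence, 772 kb inside the gene. It had 0.573 and 0.298 CPM in Par (2 and 2 reads), 0 and 0.407 CPM in LM2 (0 and 4 reads) and 6.98 and 9.79 CPM in BrM2 (32 and 79 reads). Par and LM2 thus overlapped, and both BrM2 libraries lay far above them. The level in BrM2 was 31.1-fold that in LM2 (95% counting interval 11.8 to 116), a log2 fold change of 4.98 ± 1.05 (SE; DESeq2, adjusted p 0.00023). LM2 and Par differed by -0.67 ± 1.27, with 4 reads in each line. BrM2 against LM2 is thus close here to BrM2 against Par, which led to the choice of the genes. Its adjusted p is given as a description. The call in BrM2 against LM2 was lost without LM2 replicate 2 (7.36, adjusted p 0.0607) or BrM2 replicate 2 (4.97, 0.0942).

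No H3K4me3 peak of CDH18 covers its annotated gene start, 20575982, and the nearest lay 40475 bp upstream. The CDH18 peak at chr5:19988051-19988838 is centred 587.5 kb inside the gene and covers the starts of coding transcripts, among them 19988309. It had 0 and 0.149 CPM in Par, 0.459 and 1.42 CPM in LM2 and 3.49 and 8.67 CPM in BrM2. All 3 lines were separate here, in the order Par, LM2, BrM2, but neither step passed the test. LM2 against Par gave 3.32 ± 1.58 (DESeq2, adjusted p 0.479), with 16 reads against 1, a ratio of 11.5 with a counting interval from 1.79 to 482. BrM2 against LM2 gave 2.54 ± 0.91 (adjusted p 0.118), and with the replicate number as a block it was called at 2.64 ± 0.86 (adjusted p 0.0138).

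Upstream of CDH18, 40475 bp from its outermost start, the peak at chr5:20616457-20617406 covers starts of the long non-coding RNAs LINC02146 and LINC02241. It had 0.287 and 0.596 CPM in Par, 1.15 and 1.52 CPM in LM2 and 6.77 and 8.55 CPM in BrM2. The lines were separate in that order. BrM2 rose over LM2 by 2.42 ± 0.74 (DESeq2, adjusted p 0.038), and the call was lost in edgeR (2.39, adjusted p 0.0621), with chromosome medians removed (2.49, 0.0539) and without any 1 of the 6 libraries (2.40 to 2.48). LM2 against Par gave 1.56 ± 0.99 (adjusted p 0.835).

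The other CDH18 peaks lay in introns and fell outside the rule for naming, so they were named after their values were seen. The peak at chr5:20419286-20419892 had 0 and 0.149 CPM in Par, 0 and 0.407 CPM in LM2 and 2.62 and 7.31 CPM in BrM2, and rose in BrM2 against LM2 by 4.26 ± 1.24 (DESeq2, adjusted p 0.0232). That call was lost without LM2 replicate 1 (3.65), LM2 replicate 2 (6.57) or BrM2 replicate 1 (4.80). Without BrM2 replicate 2 the peak was not called either. The peak at chr5:20378270-20378536 had no read in the 4 Par and LM2 libraries and 2.18 and 2.23 CPM in BrM2 (10 and 18 reads). Against the limit of 3 reads over the LM2 libraries this was at least 10.5-fold higher, and the test narrowly missed the threshold (adjusted p 0.0555), which it passed with the replicate block (0.0117) and in edgeR (0.0466).

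CDH12, a brain cadherin, had H3K4me3 at its gene start in BrM2. Its peak, at chr5:22853033-22853552, which covers the first exon and its upstream bases, had 0 and 0 CPM in Par, 0 and 0.407 CPM in LM2 (4 reads) and 4.15 and 5.20 CPM in BrM2 (19 and 42 reads). A mark at this start was thus not detectable in 3 of the other 4 libraries at this depth. BrM2 was 17.1-fold LM2 (counting interval 6.35 to 64.8), with a log2 fold change of 4.20 ± 1.23 (DESeq2, adjusted p 0.0254), and at least 16.4-fold higher than the limit of 3 reads over the Par libraries. The call was lost without LM2 replicate 1 (3.59, adjusted p 0.225), LM2 replicate 2 (6.52, 0.193) or BrM2 replicate 1 (4.59, 0.843), and without BrM2 replicate 2 the peak had no adjusted p. An intronic peak 392.5 kb inside the gene had 0.211 CPM in LM2 and 2.45 CPM in BrM2 over pooled replicates and did not pass (adjusted p 0.408).

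CDH10, another brain cadherin, was also highest in BrM2 at its start, with fewer reads. Par and LM2 were not separate there, with 1 read between them. The peak at chr5:24644895-24645309 had 0 and 0 CPM in Par, 0 and 0.102 CPM in LM2 (1 read) and 2.84 and 3.35 CPM in BrM2 (13 and 27 reads). The ratio of BrM2 to LM2 was 44.9, with a counting interval from 7.61 to 1817. Its log2 fold change of 5.36 ± 1.71 fell just short of the threshold (DESeq2, adjusted p 0.0521), and it was called with the replicate block (0.0111), in edgeR (0.0377) and in a fit of the 4 compared libraries alone (0.0327). A peak 69775 bp upstream had no Par read, 0.23 and 0.407 CPM in LM2 and 1.96 and 2.97 CPM in BrM2, with no call between BrM2 and LM2 (adjusted p 0.39). The peak 41227 bp downstream, at chr5:24445694-24445982, had 0.287 and 0.745 CPM in Par, 0.689 and 1.12 CPM in LM2 and 0.437 and 3.35 CPM in BrM2. The 2 BrM2 libraries enclosed both other lines there, and no difference passed (BrM2 against LM2 0.94 ± 1.21, adjusted p 0.942).

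CDH9, which takes part in synapse formation in the hippocampus, had no H3K4me3 peak in its body and none at its start. All 4 of its H3K4me3 peaks lay outside the gene, 33200 bp downstream and 28590, 96107 and 99066 bp upstream. The peak at chr5:27217364-27219223 covers the start of PURPL, a p53-induced long non-coding RNA reported to restrain p53, and had the highest mean CPM of the 16 in LM2 and BrM2, though not in Par, where the CDH6 intron peak was higher. It had 0.287 and 1.19 CPM in Par (1 and 8 reads), 4.13 and 8.84 CPM in LM2 (18 and 87 reads) and 22.7 and 34.3 CPM in BrM2 (104 and 277 reads). Each step was a full separation of the lines, and both passed the test. LM2 rose over Par by 3.02 ± 0.70 (DESeq2, adjusted p 0.0015), which was 8.39-fold in reads (counting interval 4.25 to 18.8), and BrM2 rose over LM2 by 2.04 ± 0.49 (adjusted p 0.00184), or 4.07-fold (3.27 to 5.10). The first call was lost without Par replicate 1 (2.61, adjusted p 0.0583), Par replicate 2 (4.36, 0.306) or LM2 replicate 2 (2.55, 0.145), and the second without LM2 replicate 1 (1.75, 0.118), BrM2 replicate 1 (2.22, 0.0734) or BrM2 replicate 2 (1.897, 0.387).

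The neighbouring peak at chr5:27220323-27221047, also in PURPL, had 0 and 0.298 CPM in Par, 1.84 and 2.95 CPM in LM2 and 5.46 and 10.3 CPM in BrM2. The lines were separate in the same order. LM2 against Par gave 3.74 ± 1.26, past the threshold with the replicate block alone of the DESeq2 fits (adjusted p 0.0971, and 0.0158 with the block), and BrM2 against LM2 gave 1.61 ± 0.71 (0.302). At the peak 28590 bp upstream of CDH9 both Par libraries had no read, and the LM2 libraries had 0.918 and 0.711 CPM, at least 2.64-fold higher than the limit of 3 reads over Par. Its LM2 against Par difference was not called (adjusted p 0.258, DESeq2).

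CDH6, the kidney cadherin of the family, had its larger H3K4me3 peak at levels that overlapped between all 3 lines. The peak at chr5:31273854-31274809, in an intron 80.5 kb inside the gene, had 2.29 and 4.77 CPM in Par, 2.52 and 5.89 CPM in LM2 and 4.37 and 5.82 CPM in BrM2. The lines overlapped fully. LM2 against Par was 0.27 ± 0.67 (DESeq2, adjusted p 1.0) and BrM2 against LM2 was 0.19 ± 0.65 (0.991), and the ratio of BrM2 to LM2 reads was 1.09 with a counting interval from 0.767 to 1.55. The peak next to the gene start, at chr5:31194190-31194390 and 314 bp from the nearest start, held 0 and 3 reads in Par, 0 and 6 reads in LM2 and 4 and 8 reads in BrM2. BrM2 lay above the other lines by few reads, and no difference was called there (BrM2 against LM2 1.48 ± 1.80, adjusted p 0.935).

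H3K27ac was found at 3 of the 5 genes, with 3 peaks at CDH18, 1 at CDH9 and 2 at CDH6, and no peak was listed at CDH12 or CDH10. Summed over the 6 peaks, H3K27ac held 21.4 and 14.9 CPM in Par, 35.5 and 24.7 CPM in LM2 and 48.9 and 50.1 CPM in BrM2. The rise in BrM2 against LM2 that was called belonged to CDH18. Its peak at chr5:19803901-19804557, which overlaps the H3K4me3 peak at the internal start, had 0.684 and 0.783 CPM in Par, 0.310 and 0.532 CPM in LM2 and 3.57 and 10.0 CPM in BrM2 (14 and 20 reads). Both BrM2 libraries exceeded all others, with a log2 fold change over LM2 of 4.11 ± 1.05 (DESeq2, adjusted p 0.0074). With the replicate block, DESeq2 gave 3.97 and its filter on mean counts left the peak without an adjusted p. The call was lost without LM2 replicate 2 (4.499) or BrM2 replicate 1 (4.71). Without LM2 replicate 1 or BrM2 replicate 2 the peak was not called either.

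**Figure D2:**
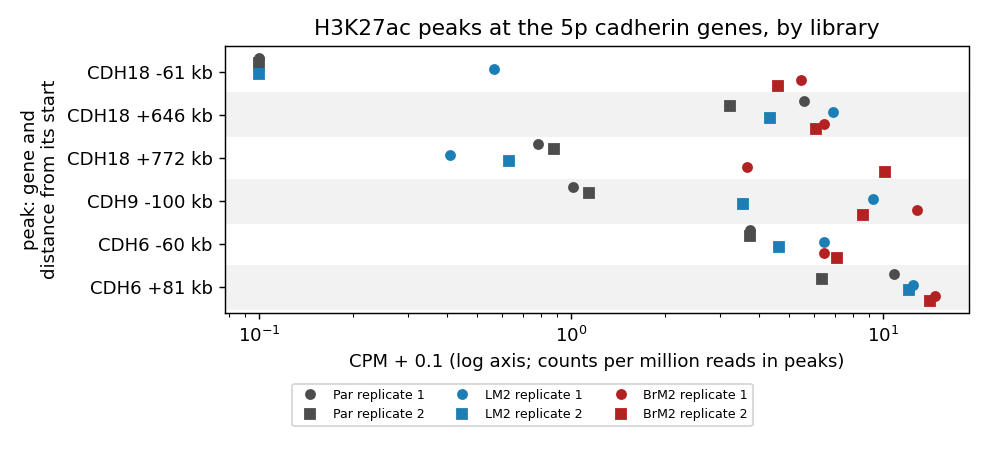
H3K27ac level of the 6 peaks in each of the 6 libraries, as CPM + 0.1 on a log axis, with circles for replicate 1 and squares for replicate 2 and peaks named by gene and distance from the gene start. At the CDH18 peaks 61 kb upstream and 772 kb inside, BrM2 lies apart from LM2 and Par, while at the 2 CDH6 peaks the highest library is at 7.02 and 14.5 CPM and the lowest at 3.65 and 6.26 CPM.

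A second CDH18 region upstream of the gene, at chr5:20637127-20637386, fell outside the rule for naming and was named after its values were seen. It had no H3K27ac read in Par, 0.465 and 0 CPM in LM2 (3 reads) and 5.35 and 4.51 CPM in BrM2 (21 and 9 reads), a ratio of BrM2 to LM2 of 17.3 (counting interval 5.37 to 88.3). DESeq2 left it without an adjusted p, and edgeR called it (adjusted p 0.00431). The third CDH18 peak, at chr5:19928573-19930638 in an intron, had 5.47 and 3.13 CPM in Par, 6.82 and 4.25 CPM in LM2 and 6.37 and 6.02 CPM in BrM2. Its lines overlapped, with BrM2 against LM2 at 0.22 ± 0.61 (DESeq2, adjusted p 0.95).

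Of the 6 H3K27ac peaks, the PURPL peak upstream of CDH9 was the one called in LM2. This peak, at chr5:27220646-27221671, had 0.912 and 1.04 CPM in Par, 9.15 and 3.46 CPM in LM2 and 12.7 and 8.52 CPM in BrM2. LM2 rose over Par by 2.65 ± 0.77 (DESeq2, adjusted p 0.0211), 7.24-fold in reads (counting interval 3.49 to 17.4), whereas BrM2 and LM2 overlapped (0.81 ± 0.60, adjusted p 0.647). The call was lost in a fit of the 4 compared libraries (2.64, adjusted p 0.0671), and without Par replicate 1 (0.286), Par replicate 2 (0.216), LM2 replicate 1 (0.839), BrM2 replicate 1 (0.0842) or BrM2 replicate 2 (0.0526). At CDH6 the intronic peak chr5:31273909-31275137, which overlaps the H3K4me3 peak there, had 10.7 and 6.26 CPM in Par, 12.4 and 11.97 CPM in LM2 and 14.5 and 14.0 CPM in BrM2. The lines were separate but close, and neither LM2 against Par (0.45 ± 0.45, adjusted p 0.834) nor BrM2 against LM2 (0.30 ± 0.44, 0.88) passed. The CDH6 peak 59252 bp upstream, at chr5:31133037-31134541, ran from 3.65 CPM in Par to 7.02 CPM in BrM2, with no call in either comparison (adjusted p 0.872 and 0.901).

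Over all 16 H3K4me3 peaks, LM2 against Par gave 1 call among 13 tested peaks, higher in LM2, where 2.51% of all tested peaks were called in either direction and 1.97% as higher. The 6 peaks where both LM2 libraries lay above both Par libraries compare with 19.1% of all peaks. The median log2 fold change was 1.24 against 0.02 over all peaks, and it was 0.86 with peaks that had no Par read set to their lower bound. With the replicate block DESeq2 called 2 of 11, in a fit that called 14.4% of all peaks. BrM2 against LM2 gave 5 calls of 16, all higher in BrM2, where 3.18% of all peaks were called in either direction and 2.05% as higher, and 14 of 16 were above without overlap, against 19.5%. The median there was 2.48, against -0.04 over all peaks, and with the replicate block 8 of 15 were called, in a fit that called 22.0% of all peaks. The count was lower without LM2 replicate 1, LM2 replicate 2, BrM2 replicate 1 or BrM2 replicate 2. For LM2 against Par it was lower without Par replicate 1, Par replicate 2 or LM2 replicate 2. The shares of all peaks called in these fits are not given, so nothing about the cadherin peaks is read from the drop. Both comparisons share libraries with the one that led to the choice, and peaks were called on reads merged over the lines. The counts and medians of these comparisons rest in part on this, so nothing is read from their distance to the values over all peaks. BrM2 against Par, which led to the choice, had 10 calls of 15 beside 3.61% of all peaks in either direction and 2.82% as higher, from which nothing is read.

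For H3K27ac, 1 of 5 tested peaks was called in LM2 against Par, beside 3.63% of all peaks in either direction and 2.72% as higher, and 1 of 5 in BrM2 against LM2, beside 2.94% and 1.71%. The 6 peaks had medians of 0.49 and 0.58 in these comparisons, against -0.02 and -0.02 over all peaks. The BrM2 against LM2 call was lost without any 1 of the LM2 or BrM2 libraries, in part because the peak was then left without an adjusted p. BrM2 against Par had 2 calls of 5 beside 5.29% of all peaks in either direction and 3.62% as higher, again as a description.

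Peaks outside the membership rule but between the outer ends of the 5 genes were also mostly above 0. Among 26 such H3K4me3 peaks, none lay within 2 kb of a protein-coding start (0 of 26). Their median log2 fold change was 1.20 in LM2 against Par and 1.53 in BrM2 against LM2. The calls were 2 of 21 tested and 2 of 26 tested, all higher, beside 2.51% and 3.18% of all tested H3K4me3 peaks. The 30 H3K27ac peaks there had medians of 1.41 and 1.41, with 6 calls of 21 tested in each comparison, all higher. Of all tested H3K27ac peaks, 3.63% and 2.94% were called. The stretch was part of the choice of the genes, so nothing is read from these counts. On the rest of the short arm the H3K4me3 medians were -0.10 and -0.20 over 198 peaks and the H3K27ac medians -0.07 and -0.16 over 672. On the long arm the H3K4me3 medians were 0.12 and -0.09 over 888 peaks and the H3K27ac medians 0.10 and -0.06 over 2999. No test of a difference between the cadherin peaks and the peaks around them was run.

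**Figure D3:**
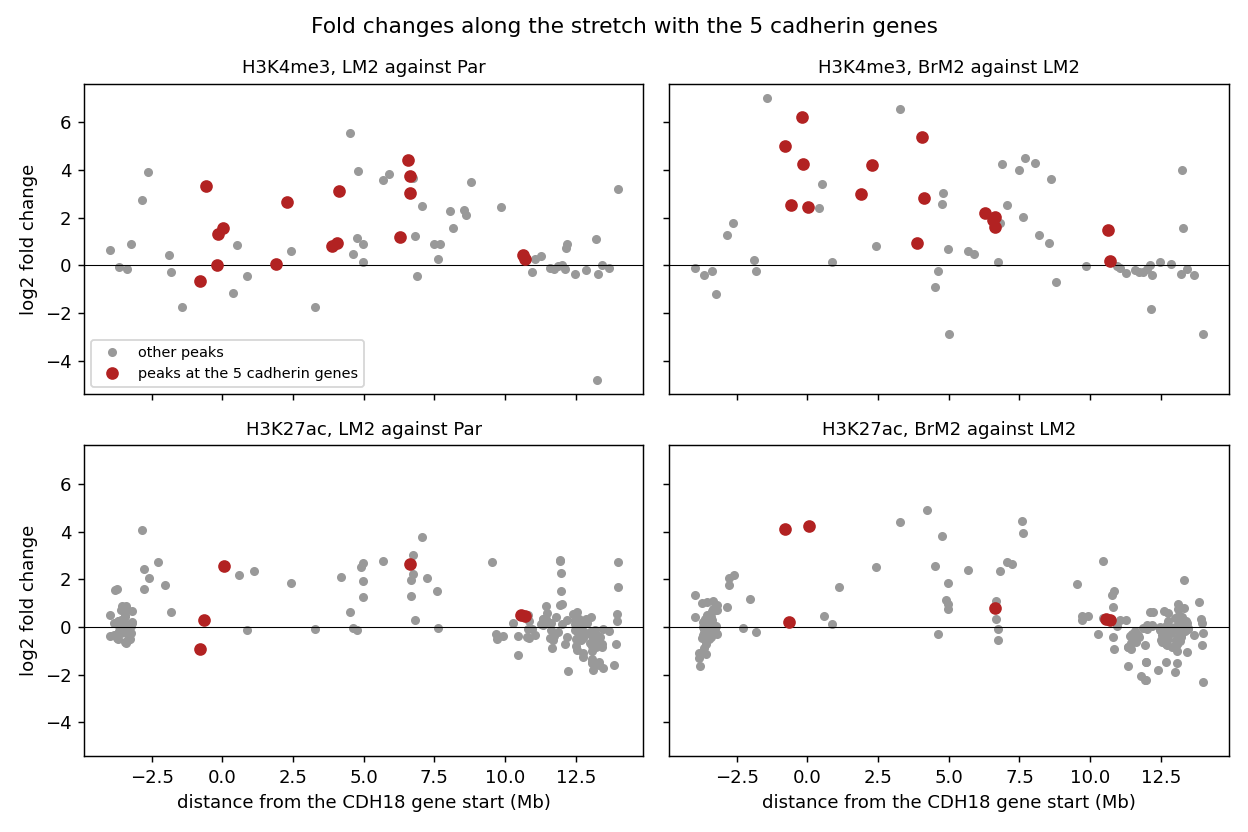
Log2 fold change of every H3K4me3 peak (top) and H3K27ac peak (bottom) against its distance from the CDH18 gene start in Mb, for LM2 against Par (left) and BrM2 against LM2 (right), with cadherin peaks in red and other peaks in grey. In BrM2 against LM2 all 16 red H3K4me3 points lie above 0, most grey points between the genes do too (21 of 26), and the dense grey points at either end scatter around 0.

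The edge of the rule fell inside the PURPL locus. The farthest members were the H3K27ac peak 99389 bp and the H3K4me3 peak 99066 bp upstream of CDH9. Just outside, an H3K27ac peak at 118583 bp had 9.12 and 11.7 CPM in Par, 30.2 and 23.9 CPM in LM2 and 31.9 and 34.6 CPM in BrM2. The nearest excluded H3K4me3 peaks lay 159324 bp from CDH12, with 1.43 to 5.33 CPM over all libraries, and 206885 bp from CDH9, with 0 to 3.22 CPM.

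Even in BrM2, H3K4me3 at the cadherin genes stayed below that of most peaks. Per kb of peak, the members' mean level lay at a median percentile of 1.58 among all H3K4me3 peaks in Par, 6.42 in LM2 and 39.4 in BrM2, and the PURPL start was the highest in BrM2, at the 52.5th percentile. H3K27ac members were at median percentiles of 5.49, 16.6 and 87.5. The H3K27ac peak upstream of CDH18, 260 bp long, reached the 98.1st percentile per kb in BrM2. Its mean of 4.93 CPM in BrM2 was under the median of 5.95 CPM over all H3K27ac peaks, so the rank rests on its short length. The H3K4me3 members were also shorter, with a median of 468 bp against 1601 bp for all H3K4me3 peaks, and 3 of 16 overlapped an H3K27ac peak, against 87.6% of all H3K4me3 peaks. Short length and low level were not particular to members. The 26 other H3K4me3 peaks between the genes had a median of 427.5 bp. Their median level in BrM2 was 7.21 CPM per kb, against 7.89 for the members.

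**Figure D4:**
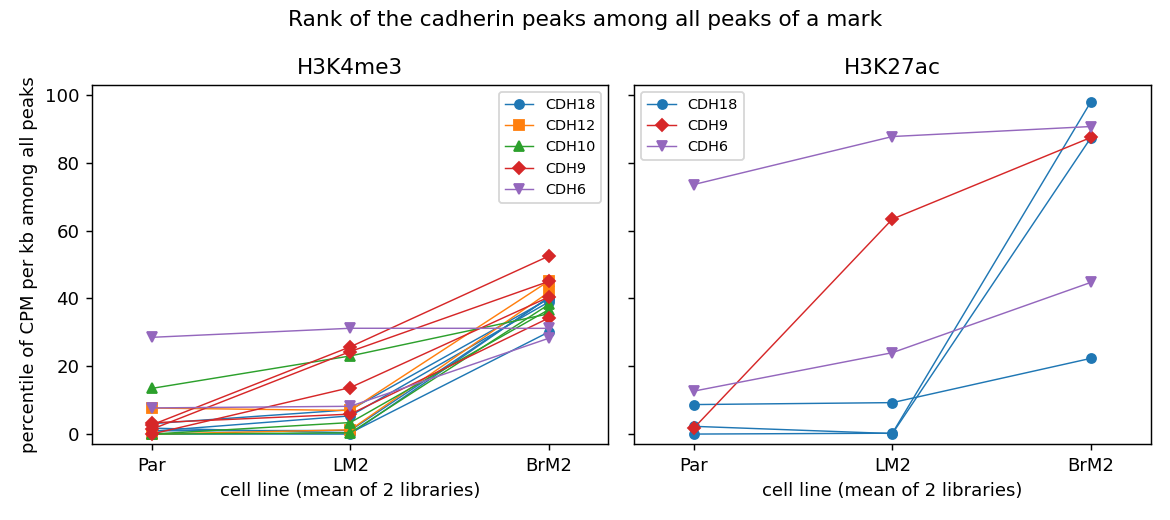
Percentile of each cadherin peak's mean CPM per kb among all peaks of its mark in Par, LM2 and BrM2, one line per peak, coloured by gene. H3K4me3 peaks end between the 28.3rd and the 52.5th percentile in BrM2, and H3K27ac peaks between the 22.3rd and the 98.1st.

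In base composition the H3K4me3 members had a median GC content of 48.0% and a ratio of observed to expected CG of 0.55, against 55.6% and 0.61 for all H3K4me3 peaks. The 26 other H3K4me3 peaks between the genes were alike, with 48.2% and 0.53. Members differed in how much of their sequence recurs. The share of their 24-base words found more than once on chromosome 5 was under 1% at 4 of the 5 H3K4me3 peaks within 2 kb of a cadherin transcript start, and 20.9% at the CDH18 internal start. Among the other 11 it ran from 0% to 60.9%, and it was over 30% at 7. Across H3K4me3 peaks of chromosome 5 the median was 0.553%. It was 19.1% over the 16 members and 40.6% over the 26 other peaks between the genes. At the H3K27ac peak over the CDH18 internal start the share was 62.3%. The H3K4me3 peaks called in BrM2 against LM2 had shares of 20.9%, 51.7% and 32.3% at CDH18, 0% at the CDH12 start and 17.3% at the PURPL start. Reads from words that recur can map to several places, and the part of this in the levels was not tested.

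Cadherin genes elsewhere in the genome were described by the peaks at their starts. Of 8 other type II genes, 3 had an H3K4me3 peak at a start (CDH8, CDH11 and CDH24), with a median log2 fold change of 0.61 in BrM2 against LM2 and 0 calls of 3 in either comparison. CDH8, also a brain cadherin, had no Par read at its start, 0 and 0.102 CPM in LM2 and 2.84 and 1.86 CPM in BrM2, and was not called (4.99 ± 1.81, DESeq2, adjusted p 0.128). Of 5 type I genes, 4 had peaks, 5 in all, with 0 calls in either comparison and medians of 0.63 in LM2 against Par and -0.21 in BrM2 against LM2. None of the 5 other cadherins had an H3K4me3 peak at a start. With H3K27ac, CDH11, a cadherin of mesenchymal cells, fell in LM2 against Par, with a log2 fold change of -1.58 ± 0.41 (DESeq2, adjusted p 0.00679), and rose in BrM2 against LM2 by 1.52 ± 0.42 (0.0164). CDH13, a cadherin without a cytoplasmic tail, rose in LM2 against Par by 0.92 ± 0.26 (DESeq2, adjusted p 0.0172).

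Among 10 catenins and other partners, 9 had an H3K4me3 peak at a start, with medians of -0.09 in LM2 against Par and -0.18 in BrM2 against LM2 over 12 peaks. The calls were all at CTNNA2, the alpha-catenin of neurons. Its peak at chr2:79739497-79740419 had 4.87 and 3.57 CPM in Par, 0 and 0.508 CPM in LM2 and 23.4 and 27.9 CPM in BrM2, and its peak at chr2:80531346-80531930 had 0.573 and 0.447, 0 and 0.508, and 6.33 and 11.03 CPM. The first fell in LM2 against Par, with a log2 fold change of -3.68 ± 0.85 (DESeq2, adjusted p 0.00155). BrM2 rose over LM2 at the first by 6.24 ± 0.82 (adjusted p 2.43e-11) and at the second by 4.72 ± 1.00 (adjusted p 0.00023). No partner was called with H3K27ac.

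CDH18 has several annotated starts, and the 2 H3K4me3 peaks that cover a start were both used to look for similar peaks. Pearson's r of log2(CPM + 1) was taken over the 6 libraries against 12516 H3K4me3 peaks at protein-coding starts off the short arm, as a description with no test. Nearest to the internal start at 19804137 were peaks at COX7B2 (r = 0.996), TSPOAP1 (0.995), FNDC4 and GCKR (0.993), NRXN3 (0.993) and MYO3A (0.991). The NRXN3 peak, at a synaptic adhesion gene, had 0.230 to 1.49 CPM in Par and LM2 and 28.6 and 41.0 CPM in BrM2. Nearest to the start at 19988309 were peaks at AGBL4 and ELAVL4 (0.996), TENM3 (0.985), SYNGR1 (0.985), a set of genes with ABHD14A and PCBP4 (0.984) and TET3 (0.984). With 6 points from 3 lines, many peaks reach such values.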

How the data were processed

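ChIP-seq was carried out on fixed chromatin (1% formaldehyde for 10 min per the labels) of Par, LM2 and BrM2 cells. The authors aligned reads to hg19 with Bowtie2 (2.3.4.3 per the submitters' processing notes), marked duplicates with Picard (2.18.21), and called broad consensus peaks with MACS2 (2.1.2) on reads merged over the lines. The labels of the merged set also name a BoM line, which was not analysed here. For each library, the authors counted reads over these peaks with featureCounts (1.6.0 per the file headers, reads extended by 150 bases), and the deposited values are raw counts. Duplicate handling and peak calling could not be varied.

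Groups and replicate numbers came from the sample titles, and 0 count columns were unmatched. CPM are counts per 1e6 reads in all peaks of a mark. Lines were compared with the DESeq2 (1.42.0) Wald test on all 6 libraries of a mark, with line as the only term and 3 residual degrees of freedom, default filtering of low mean counts and Benjamini-Hochberg adjustment over all tested peaks. An adjusted p under 0.05 was a call, and errors are standard errors. Ratios of pooled reads have exact 95% conditional (Clopper-Pearson) intervals, and a group without reads was set to 3 reads. Total reads, GC content and 24-base words were computed from the deposited counts and GRCh37.

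Peaks were named when they lay within 2 kb of a transcript start of their gene, had the highest mean normalized count per gene and mark, or were among the 3 highest or 3 lowest fold changes of a tested comparison with at least 10 normalized counts on average. The likeness search needed at least 20. The genes, members and lists were chosen with earlier results of these data known. Alternatives were edgeR (4.0.16) with TMM scaling, DESeq2 with TMM factors, a filter of 10 counts in 2 libraries, a replicate block, the 4 compared libraries alone, chromosome medians removed, gene bodies only and each library left out. A fit without the filter on mean counts was added after the data were seen. Scripts were tested on simulated data. Same-numbered libraries of different lines deviated together, with r = 0.78, 0.736 and 0.773 for H3K4me3 and 0.34, 0.475 and 0.384 for H3K27ac. The numbers in the titles were therefore taken to pair the libraries in the fits with a replicate block, though no label names a shared day. The main fit leaves this pairing out. Counts of replicates varied beyond sampling noise (chi-square over degrees of freedom 2.12 to 12.3).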

Additional observations from a re-analysis of the deposited data

Results flagged for a closer look

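For 6 peaks the effect of BrM2 differed from that of LM2 by a direct test of BrM2 against LM2, 5 with H3K4me3 and 1 with H3K27ac. The H3K4me3 differences, on the log2 scale, were 4.98 at the internal CDH18 start, 4.26 in the CDH18 intron, 2.42 upstream of CDH18, 4.20 at the CDH12 start and 2.04 at the PURPL start upstream of CDH9. The H3K27ac difference was 4.11 at the internal CDH18 start. The genes were chosen for higher H3K4me3 in BrM2 against Par, and the H3K4me3 tests use the same BrM2 libraries. These H3K4me3 differences are therefore not independent of the choice and are given as a description. Each of these calls was lost in some fits with a library left out, as given above. With 2 libraries per line, no sample could be tested for standing apart within its group.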

How the results depend on the processing

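Over the named peaks, fold changes kept their direction and their side of the threshold in 350 of the 363 results of alternatives that keep all libraries or the 4 compared, and in 218 of 259 with a library left out. Medians over the cadherin peaks kept their direction in all alternatives run. With the replicate block, H3K4me3 calls moved to 2 (LM2 against Par) and 8 (BrM2 against LM2) in DESeq2, and to 4 and 13 in edgeR, in fits that called 14.4% and 22.0% of all H3K4me3 peaks in DESeq2 and 26.2% and 38.6% in edgeR. H3K27ac calls in BrM2 against LM2 were 0 with the block in DESeq2, where the called peak had no adjusted p, 2 with it in edgeR, 2 in edgeR without it, 0 with TMM factors, again with no adjusted p, and 2 with no filter on mean counts. These fits called 6.17%, 12.5%, 3.89%, 3.04% and 1.997% of all H3K27ac peaks. The block changed no other count of calls by over 1.5 times. In the fit of the 4 compared libraries, H3K27ac LM2 against Par had 0 calls. With gene bodies only, which leaves fewer peaks (9 and 3), H3K4me3 gave 0, 3 and 5 calls and medians of 0.42, 4.20 and 5.57. The comparisons were LM2 against Par, BrM2 against LM2 and BrM2 against Par, in which 2.51%, 3.18% and 3.61% of all tested peaks were called. With gene bodies only, H3K27ac gave 0 calls in LM2 against Par, beside 3.63% of all tested peaks, and a median of 0.30 in BrM2 against LM2. In BrM2 against Par it gave 1 call, beside 5.29%, and a median of 0.75. With at least 10 counts in 2 libraries, which removes 1 H3K27ac peak, the last 2 comparisons had medians of 0.35 and 0.88.

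With each library left out in turn, H3K4me3 medians ran from 0.63 to 2.13 (LM2 against Par), 2.31 to 2.93 (BrM2 against LM2) and 4.82 to 5.46 (BrM2 against Par). H3K27ac medians ran from 0.13 to 0.83, 0.30 to 1.14 and 1.55 to 2.14. Counts of calls in these fits are not given, because the share of all peaks called in the same fits is not set beside them. The line that keeps a single library was assumed to vary like the others. Signs turned at uncalled differences. In LM2 against Par they did so at the CDH18 intron peak 156 kb inside the gene (-1.01 to 2.02), next to the CDH6 start (-2.26 without LM2 replicate 2 and -0.35 without Par replicate 1), at the CDH6 intron (-0.28 to 0.73) and at the H3K27ac peak in the CDH18 intron (-0.062 to 0.77). In BrM2 against LM2 they did so at the CDH6 intron (-0.14 to 0.74), at the same H3K27ac peak (-0.058 to 0.59) and downstream of CDH10 (-0.97 to 1.69, and -0.15 to 2.50 against Par). Except where stated, the cause was not tested. The starts of CDH12 and CDH10 held few reads outside BrM2, and the peak next to the CDH6 start held few in all lines, which limits the comparisons there.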
